A study of Mus musculus with 28 samples.

Results

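Duodenal RNA of mice whose vitamin D receptor lacks activation function 2 was compared with that of wild-type mice across all expressed genes. The comparison used 10 of the 28 libraries of the series, 4 titled Vdr AF2 (called AF2 here) and 6 titled Vdr+/+ (WT), and the codes in the sample descriptions tied each library to its column of the deposited duodenum table. The 4 duodenal libraries of receptor-null mice (Vdr-/-, given as demay in the file headers and called KO here) entered the fit to share its estimate of the spread. Their values are given for some genes and lists beside those of the main pair. Every animal of the 3 genotypes was a female of 8 weeks that ate TD.96348, a rescue diet rich in calcium, phosphate and lactose. The labels name no Cre line or tissue-specific deletion. How the AF2 allele was made, the strain, and whether the mice of a group were littermates are unstated in the labels and headers, so p-values measure the spread between these libraries.

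The vitamin D receptor is a nuclear receptor that pairs with a retinoid X receptor on DNA. When the hormone is bound, the last helix of the receptor, activation function 2, closes over the ligand pocket and forms the surface that coactivators grip. In the duodenum the hormone is best known for active calcium uptake, in which calcium enters the enterocyte through the channel TRPV6, crosses the cell bound to calbindin-D9k (gene S100g) and leaves by the pump PMCA1 (gene Atp2b1). The design asks how a receptor without coactivator contact differs from a missing one and from an intact one.

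Totals were 3938176 to 6001952 counts in AF2 libraries and 3837906 to 25181916 counts in WT libraries, with 6519522 as the next below WT 2, the deepest. Of 31179 symbols listed, 13302 genes passed the filter on low counts. WT 4 and WT 6 stood apart from the other WT libraries, with the lowest quality weights of all 14 libraries (0.628 and 0.650, where an average library has about 1), and results that turn on them are given without them below. The 4 AF2 libraries belong to 1 run of consecutive library codes together with WT 5 and WT 6, so values within that run are given for the genes the results turn on. Genes that define the duodenum were abundant in both genotypes, with summed levels of 4412 to 6858 CPM in AF2 and 4243 to 8582 CPM in WT libraries (CPM, counts scaled to library size, with the sizes adjusted by the trimmed mean of M values). Of 15 markers of kidney, liver and colon only 4 passed the filter. Those summed to 242 to 331 CPM in AF2 and 205 to 589 CPM in WT libraries. Cps1 of the urea cycle, which the small intestine also expresses, was at 269 and 253 CPM in AF2 and WT. The liver gene Alb reached 220 CPM in WT 3. Of the 15 markers 4 had no count in any library of either genotype.

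Vdr, the targeted gene (chr15:97854425-97910630, minus strand, mm10), was transcribed in AF2 duodenum at levels within the WT range. Its normalised count was 408, 432, 362 and 388 CPM in AF2 1 to AF2 4, against 267, 476 and 646 CPM as the lowest, median and highest of the WT libraries. All AF2 values lay inside the WT range (log2 fold change -0.29 ± 0.18 (SE), adjusted p 0.566 by edgeR's quasi-likelihood test with Benjamini-Hochberg adjustment). The lowest WT value was that of WT 4, and the next, WT 3 at 412 CPM, lay above AF2 1, AF2 3 and AF2 4. Without WT 4 the log2 fold change was -0.41 (adjusted p 0.112), and with code runs as a block it was -0.41 (adjusted p 0.224). WT 5 and WT 6 averaged 530 CPM, against 398 CPM in AF2. The 4 KO libraries, at 120.2, 114, 97.3 and 112 CPM, lay below every AF2 library (AF2 over KO 1.84 ± 0.21, adjusted p 0.000492). AF2 and KO libraries come from different code runs, and with code runs as a block this difference did not pass (1.20, adjusted p 0.0523). Since reads come from transcript 3' ends, these counts do not show the altered codons themselves. For orientation, the last 60 coding bases before the stop codon of the normal mouse Vdr transcript (GENCODE vM21, GRCm38, chr15:97857375-97857434, minus strand) are given with codons 412 to 418 of 422 in capitals. Those 7 codons hold the core of the activation helix, and the bases that the AF2 allele lacks are unstated in the labels and headers.
Vdr coding end: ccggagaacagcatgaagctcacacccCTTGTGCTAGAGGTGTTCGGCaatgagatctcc

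Trpv6 (chr6:41620624-41636405, minus strand), the channel by which calcium enters the enterocyte, had the lowest AF2 level and the largest fold change among the 9 genes that passed the test, which are 0.0677% of the 13302 tested (5 higher in AF2, 0.0376%, and 4 lower, 0.0301%). It measured 0.494, 1.01, 0 and 0 CPM in the 4 AF2 libraries, 1.02, 3.04, 1.28 and 2.74 CPM in the 4 KO libraries, and 3.96, 5.19 and 6.32 CPM as the lowest, median and highest of the WT libraries. Those values are 1, 3, 0 and 0 reads in AF2, 2, 6, 3 and 6 reads in KO, and 13, 67, 9, 9, 12 and 17 reads in WT. Every AF2 library lay below every KO and every WT library, although AF2 2 (1.01 CPM) and KO 1 (1.02 CPM) nearly met, and every KO library lay below every WT library. Trpv6 fell to 0.377 ± 0.484 CPM in AF2 (SD, n = 4), against 5.10 ± 0.887 CPM in WT (SD, n = 6), which is -3.56 ± 0.64 on the log2 scale (SE, adjusted p 0.0392). WT mice had 12.1 times the read rate of AF2 mice (exact 95% interval 4.61 to 45.1, which covers counting error only). Against WT 5 and WT 6, the libraries of the same code run, the WT mean was 6.00 CPM, and the fit with code runs as a block also called the gene (log2 fold change -3.79, adjusted p 0.0147). The call rested on few reads, and 6 of the 14 fits that each leave out 1 library kept it (4 to 6 for each of the 9 genes), with adjusted p from 0.0108 to 0.216 and a log2 fold change from -4.83 to -3.17. In bulk tissue, less RNA per cell and fewer cells that express a gene cannot be told apart. The difference between AF2 and KO did not pass (-2.23 ± 0.71, adjusted p 0.235).

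S100g (chrX:162961992-162964599, minus strand), which encodes the calcium-binding calbindin-D9k, was 1006, 1195, 437 and 617 CPM in AF2, 670.3, 1236, 1671 and 3161 CPM in KO, and 908, 1831 and 2381 CPM as the lowest, median and highest in WT. The 2 lowest AF2 values lay under all WT values, and the others overlapped with WT 3 and WT 4. The mean was 814 ± 348 CPM in AF2 and 1705 ± 582 CPM in WT, a log2 fold change of -1.07 ± 0.46 that did not pass (adjusted p 0.398). Promoters of Trpv6 and S100g are given as the 300 bases that end 50 bases into the transcript (RefSeq, GRCm38.p6), because these genes are the best known intestinal targets of the receptor. Capitals mark matches on either strand to the half-site AGGTCA, the variant AGTTCA, the variant GGTTCA or the variant GGGTCA, of which 43.7% of 32851 RefSeq promoters hold at least 1.
Trpv6 promoter (chr6:41636356-41636655, minus strand): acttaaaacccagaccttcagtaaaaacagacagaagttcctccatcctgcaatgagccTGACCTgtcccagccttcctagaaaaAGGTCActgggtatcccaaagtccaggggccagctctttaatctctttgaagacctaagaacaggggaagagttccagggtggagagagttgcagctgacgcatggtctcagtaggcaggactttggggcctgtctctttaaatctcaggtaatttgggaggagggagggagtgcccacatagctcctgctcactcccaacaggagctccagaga
S100g promoter (chrX:162964550-162964849, minus strand): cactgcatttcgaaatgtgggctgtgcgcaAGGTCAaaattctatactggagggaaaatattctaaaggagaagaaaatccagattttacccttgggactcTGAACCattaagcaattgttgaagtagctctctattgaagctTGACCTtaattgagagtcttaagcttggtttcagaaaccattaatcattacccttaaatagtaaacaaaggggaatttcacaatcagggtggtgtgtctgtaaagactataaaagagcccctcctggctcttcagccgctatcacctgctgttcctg
The Trpv6 window holds half-sites that begin 191 and 165 bases before the start, and the S100g window holds them 220, 149 and 107 bases before it. A pair of half-sites in the same direction separated by NNN, the direct repeat that the receptor is known to bind, stands in 13 of these promoters (0.0396%) and in no promoter of the called genes or of the calcium list. Absence of these letters from a window of this size says nothing of receptor binding elsewhere.

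The other genes of calcium entry, buffering and export did not pass. Atp2b1, the export pump, averaged 2512 CPM in AF2, 2397 CPM in KO and 2928 CPM in WT (log2 fold change -0.22 ± 0.14, adjusted p 0.572). Cacna1d, a voltage-gated calcium channel, was 6.43, 5.74, 5.19 and 8.92 CPM in AF2, against 1.58, 4.11 and 7.05 CPM as the lowest, median and highest in WT, so the groups overlapped with a higher mean in AF2 (log2 fold change 0.68 ± 0.38, adjusted p 0.5). The pump Atp2b4 (43.1 and 33.4 CPM in AF2 and WT) and the sodium-calcium exchanger Slc8a1 (9.62 and 7.65 CPM) differed by 0.38 and 0.35 on the log2 scale. Of the 7 tested members of this list 3 lay higher and 4 lower in AF2 (median -0.06, -0.11 without AF2 1 to -0.00 without AF2 3), against a median of 0.000242 over all genes tested. Wherever leaving out 1 library moved a list's median by over 1.5 times or turned its sign, the lowest and highest medians of the 14 such fits stand beside it with the library left out. Trpv5, the channel of the kidney, had 0 reads in both genotypes, and Calb1 had 0 reads in AF2 and 3 in WT. A count of 0 allows up to 0.328 CPM in pooled AF2 and 0.119 CPM in pooled WT libraries.

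**Figure D1:**
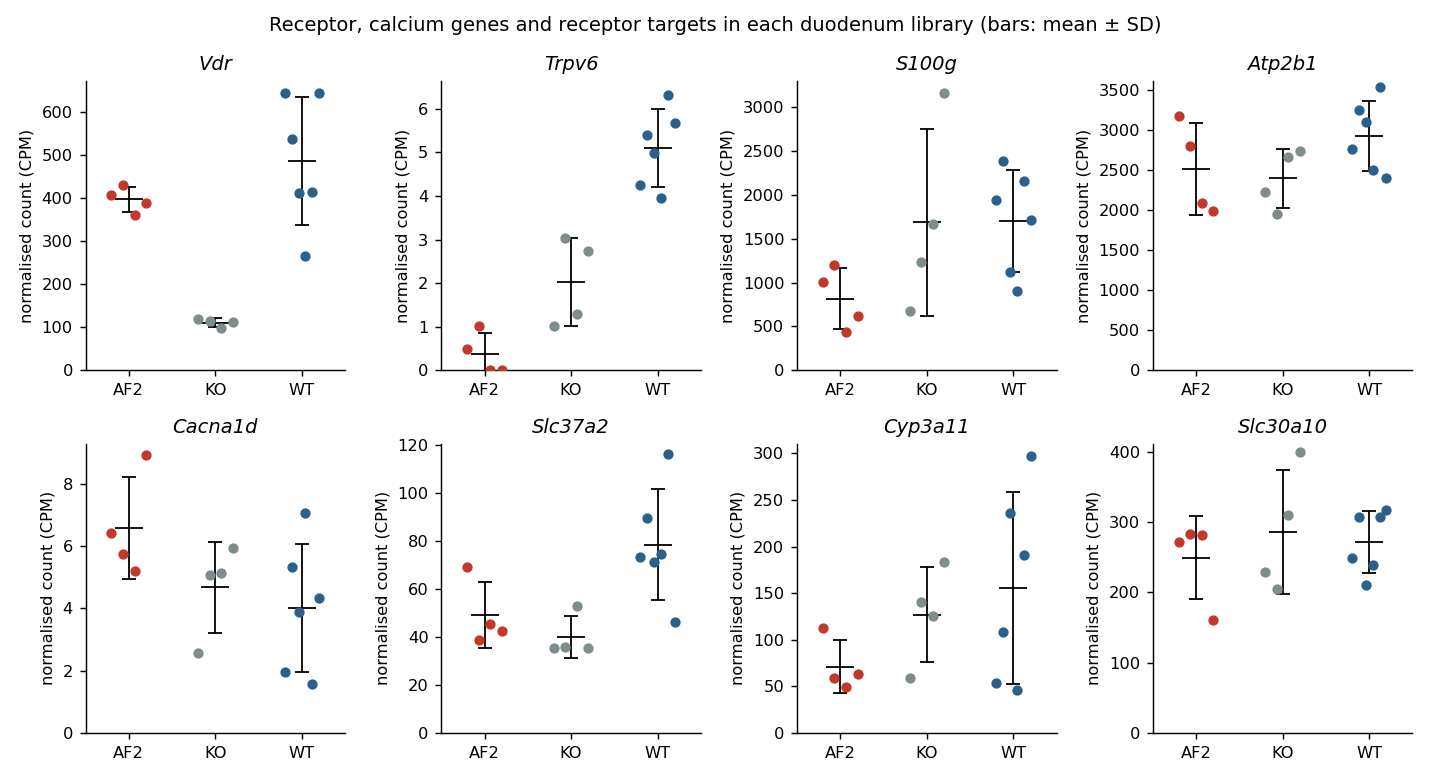
Normalised counts (CPM, linear axes from 0) of the receptor, calcium genes and other receptor targets in the AF2, KO and WT duodenum libraries. Points are libraries and bars are mean ± SD (n = 4, 4 and 6). Trpv6 lies at 0 to 1.01 CPM in AF2 and at 3.96 to 6.32 CPM in WT, while the AF2 and WT groups overlap in the other 7 panels.

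Other intestinal targets of the receptor lay lower in 9 of 10 tested genes (median log2 fold change -0.26, -0.44 without AF2 1 to -0.12 without AF2 4), and none passed. The median was -0.16 without WT 6 and -0.50 with code runs as a block. Slc37a2, a phosphate-linked sugar phosphate exchanger, had the smallest p of them. It was 69.2, 38.9, 45.4 and 42.6 CPM in AF2, 35.3, 36.0, 52.9 and 35.6 CPM in KO, and 46.4, 73.8 and 116 CPM as the lowest, median and highest in WT (log2 fold change -0.68 ± 0.21, adjusted p 0.216). WT 6 held the lowest WT value, and 3 of 4 AF2 libraries lay below it. Cyp3a11, a drug-metabolising cytochrome P450, varied widely in WT, from 45.8 to 298 CPM, and averaged 71.1 CPM in AF2, 127 CPM in KO and 155 CPM in WT (-1.13 ± 0.56, adjusted p 0.473). Enpp3, an ectonucleotide pyrophosphatase, averaged 182 and 270.5 CPM in AF2 and WT (-0.57 ± 0.39), and the manganese exporter Slc30a10 averaged 249 and 271 CPM (-0.13 ± 0.19). The exception was Myo1a, the brush border myosin, with 1351 and 1139 CPM in AF2 and WT (0.25 ± 0.12, adjusted p 0.431) beside 910.4 CPM in KO. Cyp24a1, whose enzyme inactivates the hormone, had 0 reads in all 14 libraries.

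Partners of the receptor were expressed in AF2 duodenum. Of 21 tested genes of the receptor, its partners and its coregulators 11 lay higher and 10 lower (median 0.04, -0.02 without AF2 1 to 0.08 without AF2 3), and none passed. The partner Rxra was 62.4 and 71.2 CPM in AF2 and WT, and Rxrb 20.6 and 21.5 CPM. Med1, the Mediator subunit that docks on the activation helix, was 127 and 117 CPM. The p160 coactivators Ncoa1, Ncoa2 and Ncoa3 differed by -0.21, 0.04 and 0.28 on the log2 scale, and the corepressor Ncor1 by 0.09. Ncoa7, a coactivator of the oxidation resistance family, had the smallest p of the list at 48.0 and 64.1 CPM (-0.42 ± 0.17, adjusted p 0.333).

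Of the 8 called genes beside Trpv6, none belongs to mineral transport. Selenow (chr7:15917208-15922402, minus strand), a small selenoprotein of redox defence, rose in AF2. It measured 80.1, 72.7, 72.3 and 90.6 CPM in AF2, against 35.4, 44.1 and 55.3 CPM as the lowest, median and highest in WT (log2 fold change 0.83 ± 0.15, adjusted p 0.0392). Its KO mean of 43.5 CPM was close to the WT mean of 44.5 CPM, and AF2 over KO was 0.86 ± 0.17 (adjusted p 0.0916). Ubb (chr11:62551171-62553213, plus strand), a polyubiquitin gene, rose to 164, 167, 164 and 204 CPM in AF2, against 93.8, 117 and 134 CPM in WT in the same order (0.60 ± 0.12, adjusted p 0.0408). Protein synthesis genes supplied the other rises. Mrpl34 (chr8:71464959-71465747, plus strand), a subunit of the mitochondrial ribosome, measured 494, 427, 521 and 654 CPM in AF2, against 298, 335 and 394 CPM as the lowest, median and highest in WT (0.60 ± 0.12). Rps20 (chr4:3831334-3835665, minus strand), a subunit of the cytosolic ribosome, measured 853, 801, 880.3 and 1085 CPM in AF2, against 531, 617 and 669 CPM as the lowest, median and highest in WT (0.56 ± 0.11). Rpl31-ps8 (chr15:90764279-90764656, minus strand), a ribosomal pseudogene, averaged 73.1 and 38.6 CPM in AF2 and WT (0.92 ± 0.17). Its reads are hard to assign, since a near-identical parent exists, and that parent Rpl31 measured 25.6 and 17.9 CPM (0.51 ± 0.18). The adjusted p was 0.0392 for these 3 genes. In KO the means of Ubb, Mrpl34, Rps20 and Rpl31-ps8 were 125, 384, 773 and 48.3 CPM. AF2 over KO did not pass in any of them (adjusted p 0.161, 0.199, 0.548 and 0.236). With code runs as a block Selenow, Mrpl34 and Ubb did not pass (adjusted p 0.0583, 0.0918 and 0.0933), and their means in WT 5 and WT 6 were 45.3, 363 and 121 CPM.

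Besides Trpv6, 3 genes fell. Ifih1 (chr2:62595798-62646255, minus strand) encodes MDA5, a cytosolic sensor of viral double-stranded RNA. It was 53.4, 52.7, 37.2 and 45.6 CPM in AF2, against 69.2, 73.6 and 90.5 CPM as the lowest, median and highest in WT (-0.72 ± 0.14). Cisd1 (chr10:71330480-71344954, minus strand), which encodes the iron-sulfur protein mitoNEET of the outer mitochondrial membrane, was 80.6, 95.6, 83.5 and 75.8 CPM in AF2, against 107, 151 and 162 CPM as the lowest, median and highest in WT (-0.77 ± 0.15). Plekha8 (chr6:54595111-54645839, plus strand), a glycolipid transfer protein of the Golgi, was 27.2, 20.3, 25.1 and 21.3 CPM in AF2, against 36.5, 41.2 and 54.8 CPM as the lowest, median and highest in WT (-0.88 ± 0.17). The adjusted p of each was 0.0392. In all 3 the KO mean lay between the others, at 60.1, 105 and 30.3 CPM, and AF2 over KO did not pass (adjusted p 0.43, 0.504 and 0.502).

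The groups did not overlap in any of the 9 called genes, and in 363 of all genes tested (2.73%), 197 of them higher (1.48%) and 166 lower (1.25%) in AF2. The calls stood near the limit of the test. At an unadjusted p under 0.05 there were 1564 genes (11.8%), 658 higher (4.95%) and 906 lower (6.81%). No called gene kept its call in all 14 fits that leave out 1 library: the count of calls was 217 without WT 4, from 7 to 11 without AF2 2, KO 1, KO 2, KO 4 or WT 5, 1 without WT 1 or WT 2, and 0 without AF2 1, AF2 3, AF2 4, KO 3, WT 3 or WT 6. Those 6 fits without a call had 1148 to 1504 genes at an unadjusted p under 0.05. With WT 4 left out all 9 were among the 217 calls (79 higher, 138 lower, 1.65% of 13156 genes), and with both WT 4 and WT 6 left out, a choice made after the data were seen, 8 of the 9 were among 39. DESeq2 made 154 calls (1.16%), which held 8 of the 9, and gave Trpv6 no adjusted p. With code runs as a block, which sets AF2 against WT 5 and WT 6, 131 genes (0.985%) were called, 26 higher and 105 lower, and 6 of the 9 were among them (not Selenow, Mrpl34 or Ubb).

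**Figure D2:**
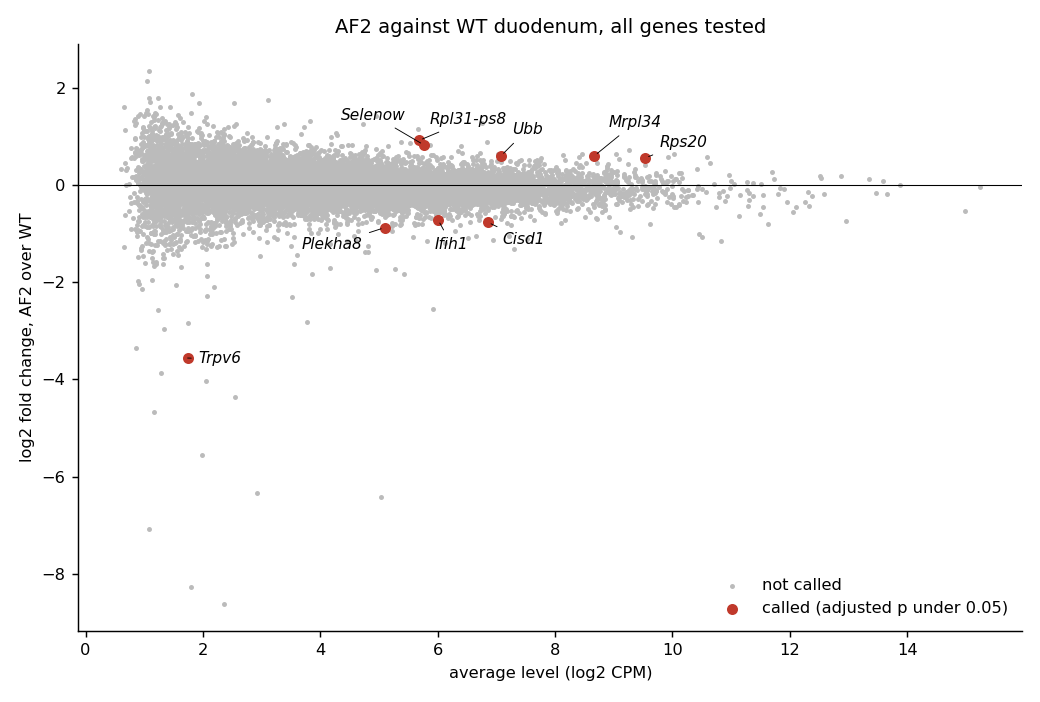
Log2 fold change of AF2 over WT (vertical axis) against average level in log2 CPM (horizontal axis) for the 13302 genes tested. The 9 called genes are named. Trpv6, at -3.56, is the only called gene beyond a 4-fold change, and the uncalled genes far below 0 at low levels include liver genes such as Fgb and Alb.

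Fold changes beyond 4-fold were found in 25 genes, 23 lower and 2 higher in AF2, of which only Trpv6 was called. Several of the others are known as products of hepatocytes and were found in few libraries. They are named here after their values were seen. The albumin gene Alb gave 1.98, 0, 0 and 0.495 CPM in AF2, 1.02, 53.2, 107 and 0 CPM in KO, and for the WT libraries 1 to 6 0.654, 16.8, 220.3, 59.9, 0 and 0 CPM. It was therefore near 0 in all AF2 libraries, in WT 5 and WT 6 of their code run, and in WT 1, KO 1 and KO 4 of other runs. Alb was high in WT 2, WT 3, WT 4, KO 2 and KO 3 (log2 fold change -6.41, adjusted p 0.393). Fibrinogen Fgb (-8.62), fetuin Ahsg (-6.34) and serpin Serpina3k (-5.56) followed the same libraries. Of the 23 lower genes 17 had their highest WT value in WT 3. Gzmb and Lama3 are among the 17, but WT 3 held 25.5% and 24.4% of their summed WT level, against 74.0% for Alb. Duoxa2, the maturation factor of an epithelial oxidase, was high in WT 6 alone (95.8 CPM, next highest WT library 21.1 CPM). Lama3, a laminin chain of epithelial basement membranes, differed in another way. It was 0.494, 1.69, 0.866 and 0.991 CPM in AF2, 3.58, 2.53, 2.56 and 10.5 CPM in KO, and 3.63, 4.59 and 7.75 CPM as the lowest, median and highest in WT, without overlap between AF2 and either genotype (-2.29 ± 0.52, adjusted p 0.074). It rests on 10 reads in AF2 and 109 in WT.

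Between AF2 and KO 2 genes passed (0.0150% of those tested, with 1328 or 9.98% at an unadjusted p under 0.05), both higher in AF2. One was Vdr. The other was Slpi, a secreted inhibitor of neutrophil proteases, with 29.7, 43.6, 39.4 and 30.7 CPM in AF2, 15.4, 18.2, 15.8 and 16.4 CPM in KO, and 17.7, 24.6 and 30.2 CPM as the lowest, median and highest in WT (AF2 over KO 1.13 ± 0.20, adjusted p 0.0326). Each AF2 library lay above each KO library, and AF2 over WT did not pass (0.57 ± 0.17, adjusted p 0.178). Neither gene kept its call with code runs as a block, where Slpi stood at 0.79, adjusted p 0.443. Slpi also missed the threshold in limma-voom (1.13, adjusted p 0.162) and without AF2 2, AF2 3 or any 1 of the KO libraries (adjusted p 0.0559 to 0.178), and DESeq2 gave it no adjusted p. Both comparisons use the same AF2 libraries, and those of AF2 and of KO with WT share the WT libraries, so they are not independent.

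Pathways and cell types were described by gene lists, each by its members' fold changes. With code runs as a block the medians of 11 of the 46 lists turned their sign, among them those of B cells (to -0.26), macrophages (-0.14) and Brunner glands (0.23), while 21 moved by over 1.5 times away from 0 on the same side and 3 towards it. Among lists with at least 20 tested genes the lowest medians were those of cholesterol synthesis (-0.54), brush border digestion with sugar uptake (-0.43) and the interferon response (-0.34) in that order. The highest were those of smooth muscle (0.44), enteroendocrine cells (0.37) and fibroblasts with extracellular matrix (0.28). Over all genes tested 50.0% lay higher in AF2 and 50.0% lower. At an unadjusted p under 0.05, 4.95% of all genes lay higher and 6.81% lower. Counts of list members at that limit below are to be set against these shares.

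**Figure D3:**
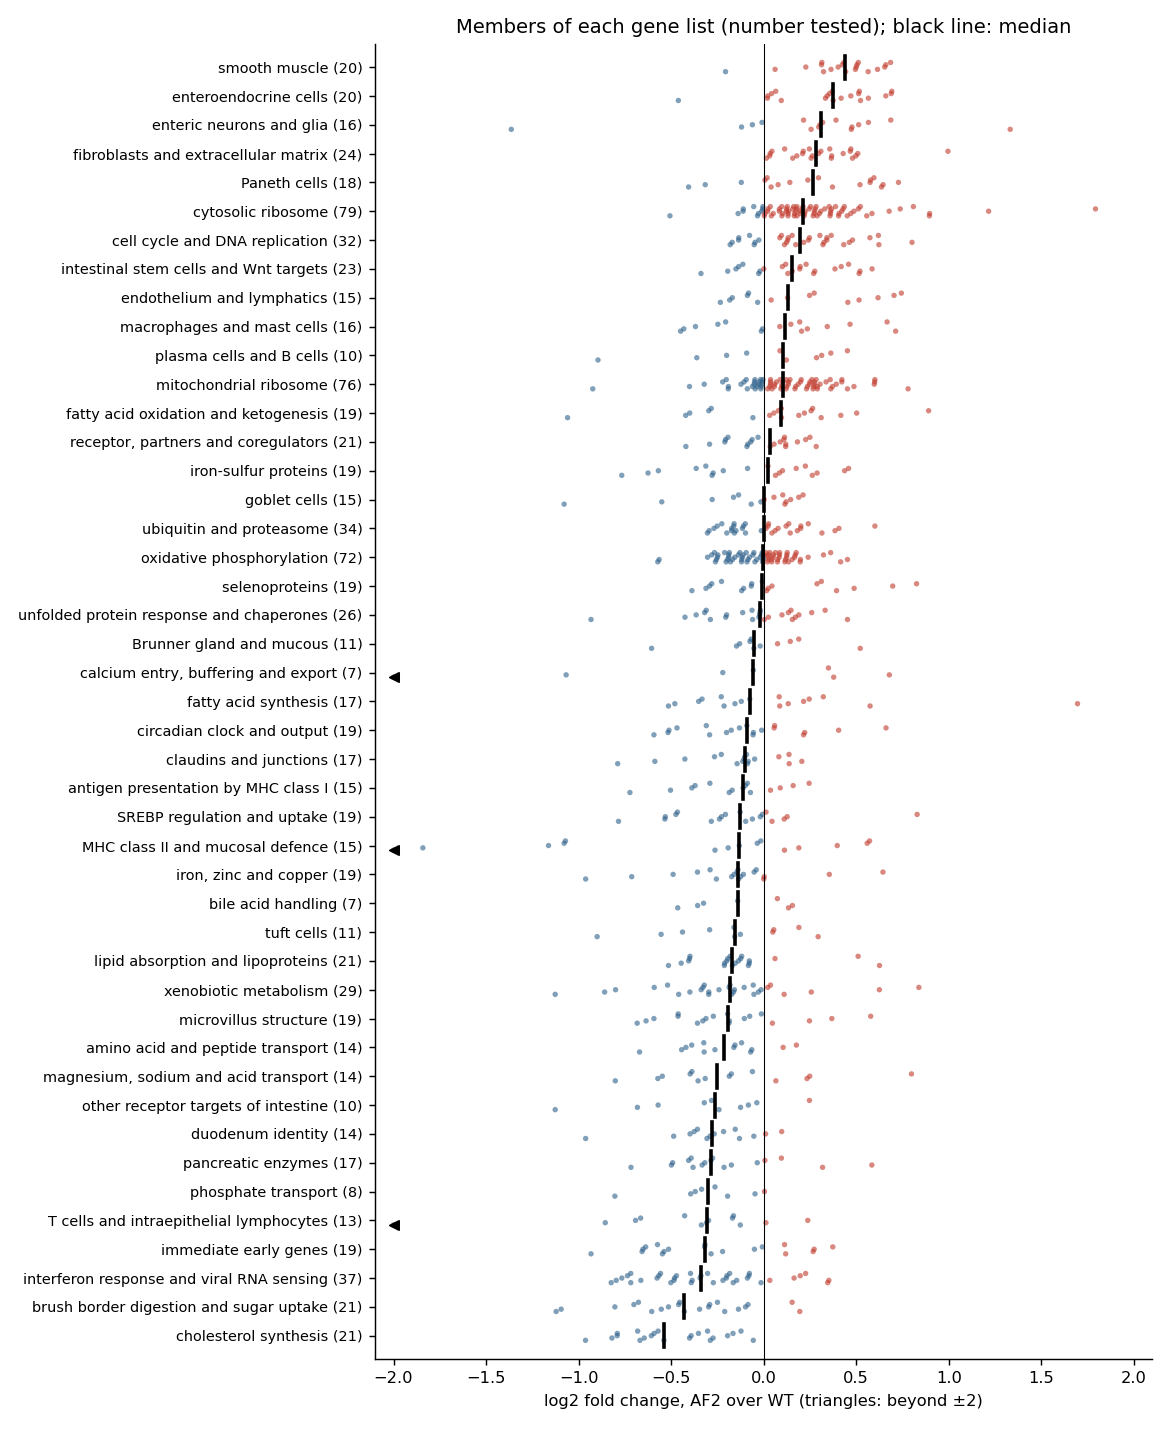
Log2 fold change of AF2 over WT (horizontal axis) for the tested members of 45 gene lists, with red points for genes higher and blue points for genes lower in AF2. Black lines are medians, numbers in brackets are tested members, and triangles mark genes beyond ±2. Cholesterol synthesis stands at the bottom with every point below 0, and smooth muscle at the top with 19 of 20 above 0.

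All 21 tested genes of cholesterol synthesis lay lower in AF2 than in WT, and none passed. Without WT 6, 19 of 21 lay lower, with Acat2 (0.02) and Fdps (0.05) above 0, and without both WT 4 and WT 6 the count was 18, with Dhcr7 (0.05) added. At an unadjusted p under 0.05 there were 12, all lower (6.81% of all genes were so). DESeq2 called 2 of them, Hsd17b7 and Pmvk, against 1.16% of all genes. The members are described by their place in the pathway, a choice made after their values were seen. At the entry to the pathway Acat2, which joins acetyl groups, hardly differed (49.4 and 51.5 CPM in AF2 and WT, log2 fold change -0.06). The synthase Hmgcs1 was 227, 219, 163 and 157 CPM in AF2, 421, 227, 212 and 246 CPM in KO, and 203, 309 and 514 CPM as the lowest, median and highest in WT (-0.79 ± 0.29, adjusted p 0.326). The high WT mean came from WT 1 and WT 6 above all, and AF2 values overlapped with the lower WT libraries.

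In the mevalonate steps Pmvk, phosphomevalonate kinase, was the only member of the list whose groups did not overlap. It was 13.8, 13.2, 15.1 and 18.3 CPM in AF2, against 20.1, 24.2 and 28.5 CPM as the lowest, median and highest in WT (-0.68 ± 0.18, adjusted p 0.121, and 0.0471 without WT 4). Mevalonate kinase Mvk averaged 13.1 and 23.1 CPM in AF2 and WT (-0.82 ± 0.25), and the decarboxylase Mvd 21.4 and 26.5 CPM (-0.30 ± 0.28). Fdps, which makes farnesyl diphosphate, differed by -0.12, Ggps1 of the geranylgeranyl branch by -0.29 and squalene synthase Fdft1 by -0.61. Squalene epoxidase Sqle was 32.0 and 51.0 CPM (-0.67 ± 0.21) and lanosterol synthase Lss 8.42 and 10.9 CPM (-0.35 ± 0.31).

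Among the enzymes from lanosterol to cholesterol Hsd17b7, a sterol ketoreductase, had the smallest p. It was 44.5, 34.1, 29.9 and 28.7 CPM in AF2, against 35.6, 56.6 and 88.2 CPM as the lowest, median and highest in WT (-0.79 ± 0.20, adjusted p 0.105), and WT 2 alone of the WT libraries lay within the AF2 range. The methyl oxidase Msmo1 averaged 116 and 181 CPM in AF2 and WT (-0.65 ± 0.28), the demethylase Cyp51 131 and 195 CPM (-0.57 ± 0.30) and the decarboxylating dehydrogenase Nsdhl 16.5 and 24.0 CPM (-0.54 ± 0.21). Tm7sf2, a sterol reductase at low level, was 2.49 and 4.77 CPM (-0.96 ± 0.39). The last steps differed less, with -0.17 for the isomerase Ebp, -0.27 for the desaturase Sc5d and -0.20 for the reductase Dhcr7. Fdx1, a mitochondrial electron donor placed on the list, differed by -0.39.

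WT 1 and WT 6 held the highest mean levels of this list, 0.42 and 0.57 log2 units above the mean of all 14 libraries, while the AF2 libraries lay -0.16 to -0.37 from it and WT 2 and WT 3 at -0.18 and -0.17. The median was -0.41 without WT 6, -0.52 without WT 4 and -0.59 with code runs as a block. AF2 over KO had a median of -0.30, and KO over WT -0.23. Summed levels were 1083 to 1323 CPM in AF2 and 1273 to 2474 CPM in WT libraries. Related lists differed less: sterol regulation and uptake had 14 of 19 genes lower (median -0.13, -0.19 without AF2 2 to -0.07 without WT 6), and fatty acid synthesis had 9 of 17 lower (median -0.08, -0.15 without AF2 1 to 0.01 without AF2 3). Abcg5, which returns plant sterols to the gut lumen, was 93.2 and 129.7 CPM in AF2 and WT (-0.47 ± 0.14, adjusted p 0.178, and 0.0371 without WT 4). The sterol carrier Stard4 averaged 114 and 166 CPM without overlap of the groups (adjusted p 0.248).

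**Figure D4:**
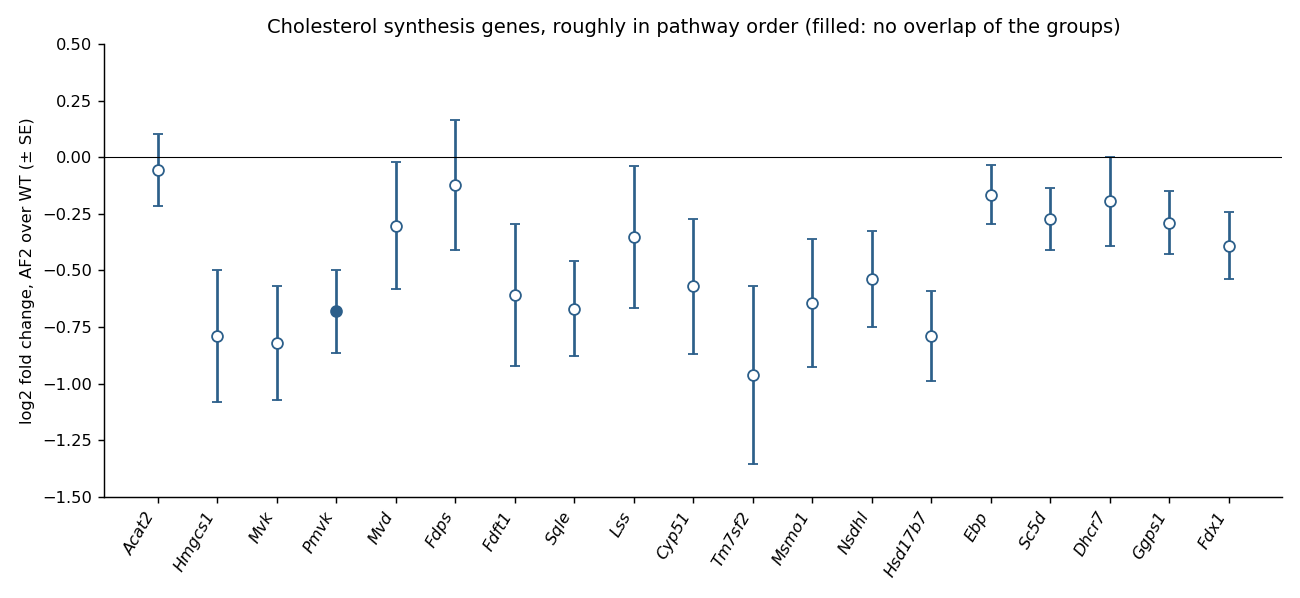
Log2 fold change of AF2 over WT ± SE for 19 of the 21 tested genes of cholesterol synthesis, roughly in pathway order from left to right, with Ggps1 and Fdx1 last. Every point lies below 0, from -0.06 for Acat2 to -0.96 for Tm7sf2, and the filled point is Pmvk, whose groups do not overlap.

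Promoters were read for 16 of the 21 genes. The letters CCAAT, on either strand, stood in 14 of these 16 genes (87.5%), against 37.4% of all 32851 promoters and 41.1% of the genes that own them. The core of the sterol response element, TCACNCCAC, stood in 1 of 16 genes, against 1.24% of all promoters and 1.44% of their genes. The windows of Hsd17b7 and Mvk are shown because they hold the most CCAAT boxes among the genes described above, with capitals for each box.
Hsd17b7 promoter (chr1:169969156-169969455, minus strand): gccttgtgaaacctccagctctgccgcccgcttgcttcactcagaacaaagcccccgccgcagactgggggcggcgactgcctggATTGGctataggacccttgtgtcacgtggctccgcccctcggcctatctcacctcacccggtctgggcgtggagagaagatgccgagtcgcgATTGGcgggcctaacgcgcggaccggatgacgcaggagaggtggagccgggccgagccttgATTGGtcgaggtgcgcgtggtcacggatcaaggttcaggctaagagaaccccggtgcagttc
Mvk promoter (chr5:114444019-114444318, plus strand): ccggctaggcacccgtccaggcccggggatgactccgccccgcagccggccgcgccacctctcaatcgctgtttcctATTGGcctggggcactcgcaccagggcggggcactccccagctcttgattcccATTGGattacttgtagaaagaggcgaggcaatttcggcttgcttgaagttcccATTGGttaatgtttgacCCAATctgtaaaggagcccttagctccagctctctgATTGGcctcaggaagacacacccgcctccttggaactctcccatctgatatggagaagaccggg
The boxes begin 165, 73 and 12 bases before the start in Hsd17b7, and 173, 120, 67, 50 and 14 bases before it in Mvk. A match is a description of the letters and no evidence of a bound factor.

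Genes of the absorbing surface mostly had lower means in AF2. Among 21 tested genes of digestion and sugar uptake at the brush border 19 had lower means (median -0.43, -0.49 without AF2 1 to -0.24 without WT 6), and none passed. At an unadjusted p under 0.05 there were 7 lower and 0 higher, against 6.81% and 4.95% of all genes. Alpi, intestinal alkaline phosphatase, was 2306, 2855, 1690.0 and 2067 CPM in AF2, against 2225, 4025 and 4613 CPM as the lowest, median and highest in WT (-0.80 ± 0.20, adjusted p 0.123). WT 4 was the lowest WT library, and the other 5 lay at or above 3953 CPM, above every AF2 library. Without WT 4 Alpi passed (adjusted p 0.0108), and DESeq2 called it with all libraries (0.00702). Sis, sucrase-isomaltase, averaged 2627 and 3599 CPM in AF2 and WT (-0.45 ± 0.13, adjusted p 0.144), beside 2453 CPM in KO. Slc5a1, the sodium-glucose cotransporter, averaged 2489.7 and 3787 CPM (-0.61 ± 0.18, adjusted p 0.19), beside 1897 CPM in KO. The list had a median of -0.24 without WT 6, -0.48 without WT 4, -0.65 with code runs as a block and -0.01 for AF2 over KO.

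Microvillus structure had 15 of 19 genes lower (median -0.20, -0.30 without WT 4 to -0.13 without AF2 3), with members on both sides. Myo1d, a brush border myosin, was 159.7, 186, 187 and 163 CPM in AF2, against 205, 256 and 319 CPM as the lowest, median and highest in WT, without overlap (-0.59 ± 0.13, adjusted p 0.0659). The actin capper Eps8 averaged 119 and 186 CPM in AF2 and WT (-0.64 ± 0.17) and the vesicle motor Myo5b 113 and 155 CPM (-0.46 ± 0.15). Espn, the actin bundler espin, lay on the other side with 468, 366, 439.7 and 474 CPM in AF2 and 238, 301 and 317 CPM as the lowest, median and highest in WT, also without overlap (0.58 ± 0.13, adjusted p 0.0659). Both Myo1d and Espn were called without WT 4 (adjusted p 0.0108 and 0.0252). Genes of duodenal identity lay lower in 12 of 14, with the transcription factors Pdx1 (109.8 and 142 CPM in AF2 and WT), Hnf4a (241 and 298 CPM) and Hnf4g (46.9 and 61.9 CPM) among the 4 with an unadjusted p under 0.05, and none passed.

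Transporters of other minerals and nutrients followed the same side without calls. Phosphate transport had 7 of 8 genes lower (median -0.30, -0.35 without WT 4 to -0.18 without WT 5, Alpi included), and the mitochondrial phosphate carrier Slc25a3 averaged 887 and 1166 CPM in AF2 and WT. Magnesium, sodium and acid transport had 10 of 14 lower (median -0.25), with the sodium-proton exchanger Slc9a2 at 51.0 and 75.9 CPM (-0.57 ± 0.15, adjusted p 0.121). Iron, zinc and copper transport had 15 of 19 lower (median -0.14, -0.17 without WT 4 to -0.05 without AF2 3), with the zinc exporter Slc30a1 at 41.5, 48.0, 53.2 and 45.6 CPM in AF2 and 56.3, 66.3 and 74.2 CPM as the lowest, median and highest in WT, without overlap (-0.49 ± 0.17, adjusted p 0.25). Claudins and junctions had 13 of 17 lower (median -0.10, -0.14 without AF2 2 to -0.04 without WT 6). In it the cation pore claudins Cldn2 and Cldn15 differed by 0.21 and 0.08, and Cldn12, which has been tied to paracellular calcium, by -0.11. Amino acid and peptide transport had 12 of 14 lower (median -0.21), lipid absorption 18 of 21 (median -0.17, -0.25 without WT 4 to -0.07 without AF2 3) and xenobiotic metabolism 23 of 29 (median -0.18, -0.32 without AF2 1 to -0.14 without WT 5). Bile acid handling had 4 of 7 lower (median -0.14, -0.25 without WT 3 to 0.06 without WT 1).

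Genes of smooth muscle lay higher in AF2 duodenum. Of 20 tested genes 19 lay higher (median 0.44), 15 of them at an unadjusted p under 0.05 (4.95% of all genes were so), and none passed. Flna, the actin crosslinker filamin A, was 196, 186, 143 and 175 CPM in AF2, against 92.8, 112 and 139.5 CPM as the lowest, median and highest in WT, without overlap (0.61 ± 0.13, adjusted p 0.0616). Des, the muscle intermediate filament desmin, was 53.9, 61.5, 53.2 and 76.8 CPM in AF2, against 32.1, 38.9 and 49.3 CPM as the lowest, median and highest in WT, without overlap (0.66 ± 0.15, adjusted p 0.074). Tropomyosin Tpm2 averaged 115 and 72.8 CPM in AF2 and WT (0.65 ± 0.16) and the myosin light chain Myl9 166 and 117 CPM (0.50 ± 0.12), while calponin Cnn1 averaged 88.4 and 59.7 CPM (0.56) and smooth muscle actin Acta2 279 and 207 CPM (0.43). Without WT 4 edgeR called 7 members and with all libraries DESeq2 called 5, all higher. With code runs as a block 1 member was called, also higher, and the median was 0.50. The muscle genes of KO were near WT (median -0.07 for KO over WT, 0.53 for AF2 over KO). Summed levels were 3108 to 3735 CPM in AF2 and 2498 to 3392 CPM in WT libraries.

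Other lists of the gut wall lay on the same side, but in these KO lay above WT as well. Medians for KO over WT were 0.18 for fibroblasts, 0.37 for neurons and glia and 0.08 for endothelium. For AF2 over KO they were 0.11, 0.17 and 0.09 in the same order. All 24 tested genes of fibroblasts and extracellular matrix lay higher (median 0.28, 0.16 without AF2 4 to 0.36 without AF2 3), 8 at an unadjusted p under 0.05, with the proteoglycan Dcn at 203 and 143 CPM in AF2 and WT (0.51 ± 0.15, adjusted p 0.163) and Bgn at 42.0 and 30.4 CPM (0.47 ± 0.16). Enteric neurons and glia had 12 of 16 higher (median 0.31, 0.17 without WT 6 to 0.58 without WT 4), and endothelium and lymphatics 9 of 15 (median 0.13, 0.03 without AF2 1 to 0.24 without AF2 3). Muscle and brush border signals varied between libraries. AF2 1 and AF2 2, at 0.46 and 0.30 log2 units above the mean of libraries for smooth muscle, lay at 0.01 and 0.05 for the brush border list. In the same order AF2 3 lay at 0.07 and -0.32, and AF2 4 at 0.41 and -0.33. WT 4, with the lowest brush border level, lay at 0.09 and -0.39, and WT 6, with the highest, at -0.44 and 0.69. How far the share of muscle layer in each piece of tissue enters any gene's value was not tested.

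**Figure D5:**
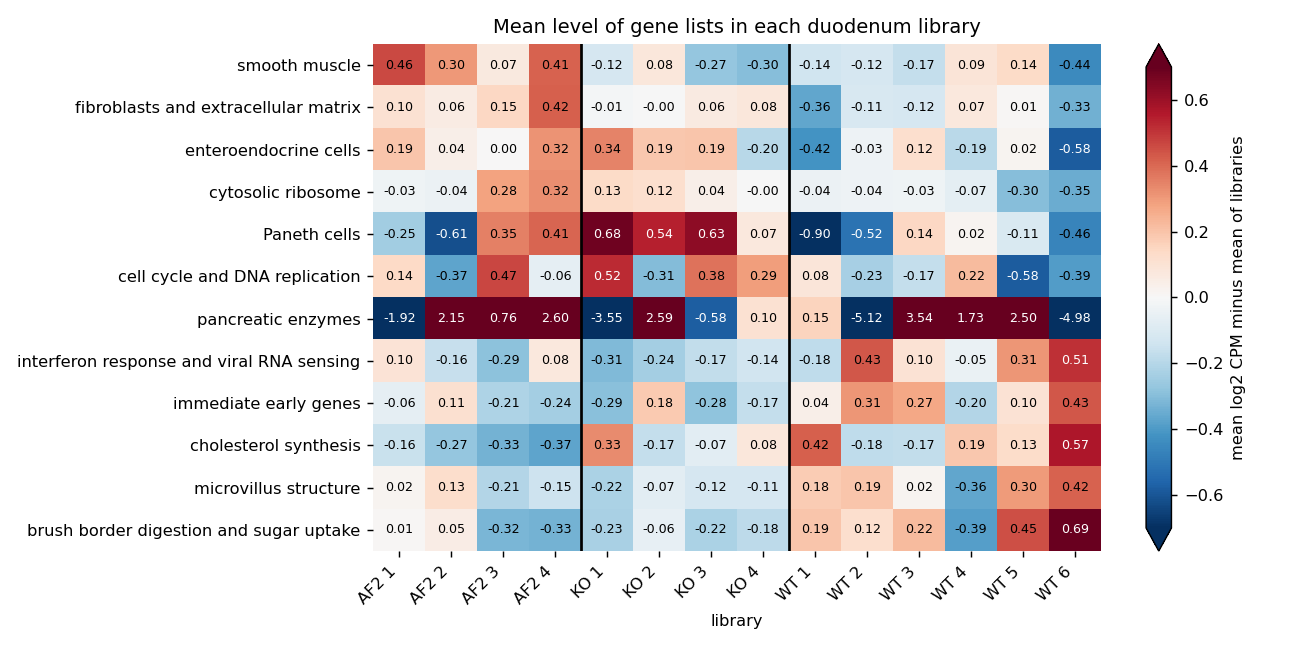
Mean log2 CPM of the tested members of 12 gene lists in each duodenum library, as the difference from the mean of the 14 libraries (colour and printed value; the colour scale ends at ±0.7). Smooth muscle is above 0 in all 4 AF2 libraries (0.07 to 0.46) and below 0 in 4 of 6 WT libraries, while cholesterol synthesis is below 0 in all 4 AF2 libraries and highest in WT 6 (0.57).

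The interferon response and viral RNA sensing had 31 of 37 genes lower in AF2 (median -0.34, -0.40 without AF2 4 to -0.18 without WT 6). Ifih1 fell, 10 members including it had an unadjusted p under 0.05, all lower, and no other member passed. Gbp7, an interferon-induced guanylate-binding protein, was 18.3, 18.6, 18.2 and 20.8 CPM in AF2, against 25.4, 30.6 and 33.7 CPM as the lowest, median and highest in WT, without overlap (-0.66 ± 0.16, adjusted p 0.0852), and its KO mean was 18.3 CPM. Irf1, a transcription factor of the response, was 138, 149, 121 and 158 CPM in AF2, against 155, 199 and 319 CPM as the lowest, median and highest in WT (-0.57 ± 0.16, adjusted p 0.146). WT 6 held the highest Irf1 value, and without it the log2 fold change was -0.40. The median of the list was -0.18 without WT 6 and -0.55 with code runs as a block, and AF2 over KO had a median of 0.16, with KO over WT at -0.30.

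The core of the interferon-stimulated element (TTTC repeated after 2 free bases, on either strand) stood in 15 of the 27 list genes with a promoter (55.6%). It stood in 3.44% of all promoters and 3.99% of the genes that own them. Those of Ifih1, the called gene, and Gbp7, the other member whose groups did not overlap, are shown with the element in capitals.
Ifih1 promoter (chr2:62646206-62646505, minus strand): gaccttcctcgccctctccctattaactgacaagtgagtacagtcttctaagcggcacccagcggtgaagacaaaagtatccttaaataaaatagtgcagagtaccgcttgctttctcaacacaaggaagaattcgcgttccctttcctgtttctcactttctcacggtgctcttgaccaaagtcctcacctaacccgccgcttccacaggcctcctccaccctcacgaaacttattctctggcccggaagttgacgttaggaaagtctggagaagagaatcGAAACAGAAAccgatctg
Gbp7 promoter (chr3:142530086-142530385, plus strand): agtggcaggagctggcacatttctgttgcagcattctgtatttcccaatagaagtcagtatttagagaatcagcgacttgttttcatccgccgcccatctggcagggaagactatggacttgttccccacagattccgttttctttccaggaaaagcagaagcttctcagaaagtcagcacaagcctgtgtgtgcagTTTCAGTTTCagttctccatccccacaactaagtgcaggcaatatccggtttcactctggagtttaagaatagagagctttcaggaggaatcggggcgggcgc
It begins at base 33 of the transcript in Ifih1, on the opposite strand, and 53 bases before the start in Gbp7.

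Other immune lists held no called gene. Antigen presentation by MHC class I had 11 of 15 genes lower (median -0.11, -0.21 without WT 4 to -0.03 without AF2 3), and MHC class II with mucosal defence 10 of 15 (median -0.13, -0.31 without AF2 4 to 0.08 without AF2 1), where WT 6 and WT 5 had the highest mean log2 CPM of all libraries. T cells and intraepithelial lymphocytes had 11 of 13 lower (median -0.31, -0.57 without AF2 2 to -0.11 without AF2 3), with the granzyme Gzmb at 0.989, 1.01, 0 and 0 CPM in AF2 and 0.881, 3.49 and 4.98 CPM as the lowest, median and highest in WT (-2.58 ± 0.79, adjusted p 0.188), from 5 and 78 reads. Plasma cells and B cells (6 of 10 higher, median 0.11, -0.15 without AF2 4 to 0.31 without AF2 1) and macrophages and mast cells (9 of 16 higher, median 0.12, 0.03 without WT 3 to 0.24 without WT 5) had no common side. Immediate early genes had 14 of 19 lower (median -0.32), 7 at an unadjusted p under 0.05. Klf6 was 166, 177, 110.4 and 139 CPM in AF2 and 177, 228 and 283 CPM as the lowest, median and highest in WT (-0.64 ± 0.14, adjusted p 0.0659), and the stress factor Atf3 averaged 6.72 and 12.8 CPM (-0.93 ± 0.32). Clock genes had 13 of 19 lower (median -0.09, -0.19 without AF2 1 to -0.03 without AF2 4), with Bhlhe40 at 64.9 and 92.7 CPM (-0.52 ± 0.16).

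Genes of the ribosomes lay higher in AF2. Of 79 tested genes of the cytosolic ribosome 69 lay higher (median 0.21), 21 at an unadjusted p under 0.05 and none lower at that limit, and Rps20 rose. Rplp1 was 718, 734, 743 and 719 CPM in AF2, against 471, 545 and 589.7 CPM as the lowest, median and highest in WT, without overlap (0.44 ± 0.11, adjusted p 0.0921). Rps15a averaged 197 and 144 CPM in AF2 and WT (0.45 ± 0.12) and Rps26 533 and 416 CPM (0.36 ± 0.11). KO over WT had a median of 0.20 and AF2 over KO one of 0.06. Many of these genes have pseudogene copies that could share reads. AF2 3 and AF2 4 held the highest mean level of the list (0.28 and 0.32 log2 units above the mean of libraries), while AF2 1 and AF2 2 lay at -0.03 and -0.04. The mitochondrial ribosome had 51 of 76 genes higher (median 0.10, 0.09 without WT 3 to 0.17 without AF2 1), 11 at an unadjusted p under 0.05 and none lower at it. Besides Mrpl34, which rose, Mrpl38 averaged 57.7 and 38.0 CPM (0.60 ± 0.15, adjusted p 0.0935), Mrpl12 207 and 148 CPM (0.49 ± 0.12) and Mrpl45 92.3 and 68.8 CPM (0.42 ± 0.14).

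Other mitochondrial and protein quality lists were divided. Oxidative phosphorylation had 34 of 72 genes higher and 38 lower (median -0.01, -0.03 without WT 4 to 0.02 without WT 5), and members of the same complex differed in side. In complex III the core subunit Uqcrc1 was 568, 454, 454 and 592 CPM in AF2 and 314, 387 and 449.6 CPM as the lowest, median and highest in WT (0.45 ± 0.12, adjusted p 0.11), while the Rieske iron-sulfur subunit Uqcrfs1 was 354, 413, 315 and 374 CPM in AF2 and 343, 545 and 663 CPM in WT in the same order (-0.56 ± 0.15, adjusted p 0.131). Ndufs6 of complex I was 419.6 and 315 CPM in AF2 and WT, without overlap (0.42 ± 0.11). Iron-sulfur proteins had 10 of 19 higher (median 0.02, -0.05 without AF2 3 to 0.06 without WT 1), with Cisd1 called and the cluster assembly factor Isca2 at 18.3 and 27.5 CPM (-0.57 ± 0.20). Selenoproteins had 9 of 19 higher (median -0.01, -0.05 without AF2 1 to 0.03 without AF2 3), with Selenow called. Ubiquitin and proteasome genes had 17 of 34 higher (median -0.00, -0.04 without WT 6 to 0.04 without AF2 1), Ubb called and the proteasome ubiquitin receptor Psmd4 at 271 and 218 CPM (0.31 ± 0.10). The unfolded protein response had 11 of 26 higher (median -0.02, -0.05 without WT 5 to 0.03 without WT 4).

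Secretory and crypt lists lay mostly higher in AF2 without calls. KO lay on the same side for enteroendocrine cells, cell cycle and stem cells, with medians for KO over WT of 0.30, 0.41 and 0.29. For AF2 over KO these 3 lists had medians of 0.05, -0.19 and -0.09 in the same order. Enteroendocrine cells had 19 of 20 genes higher (median 0.37), 6 at an unadjusted p under 0.05. Ghrl, which encodes the appetite hormone ghrelin, was 40.5, 37.8, 38.5 and 52.0 CPM in AF2, against 19.7, 26.9 and 31.6 CPM as the lowest, median and highest in WT, without overlap (0.69 ± 0.16, adjusted p 0.0829). Cck, the cholecystokinin gene, averaged 125 and 86.9 CPM in AF2 and WT (0.52 ± 0.15) and somatostatin Sst 41.4 and 26.5 CPM (0.66), whereas glucagon Gcg was 7.83 and 7.89 CPM (0.02) and Gip 37.5 and 35.2 CPM (0.09). Paneth cells had 15 of 18 higher (median 0.27, 0.16 without AF2 4 to 0.40 without WT 6, defensins uncertain because of near-identical copies), with KO over WT at 0.93. Cell cycle and DNA replication had 24 of 32 higher (median 0.19, 0.04 without AF2 3 to 0.34 without WT 4), led by the ubiquitin conjugase Ube2c with 39.5, 34.1, 55.0 and 49.5 CPM in AF2 and 17.4, 25.0 and 34.3 CPM as the lowest, median and highest in WT (0.80 ± 0.17, adjusted p 0.063). Stem cells and Wnt targets had 16 of 23 higher (median 0.15, 0.11 without WT 6 to 0.26 without AF2 2). Goblet cells (8 of 15 higher, median 0.00, -0.05 without AF2 3 to 0.06 without WT 1), Brunner glands (4 of 11, -0.05, -0.12 without WT 5 to 0.13 without WT 4) and tuft cells (4 of 11, -0.16, -0.24 without AF2 4 to 0.03 without WT 4) did not share that side. Pancreatic enzymes, whose source lies beside the duodenum, summed to 574 to 13693 CPM in AF2 and 103 to 26744 CPM in WT libraries (13 of 17 lower, median -0.29, -0.77 without AF2 4 to 0.58 without WT 3).

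Fat metabolism held single genes with small p. Plin2, the coat protein of lipid droplets, was 78.1, 71.0, 75.3 and 78.8 CPM in AF2, against 32.7, 54.5 and 64.6 CPM as the lowest, median and highest in WT, without overlap (0.51 ± 0.14, adjusted p 0.139). Pparg, a nuclear receptor of lipid storage, was 11.9, 16.9, 15.6 and 10.4 CPM in AF2, against 18.5, 30.3 and 35.0 CPM as the lowest, median and highest in WT, without overlap (-1.06 ± 0.30, adjusted p 0.178), beside 25.4 CPM in KO. Fads2, a fatty acid desaturase, averaged 85.8 and 57.6 CPM in AF2 and WT (0.57 ± 0.16), and the long-chain acyl-CoA synthetase Acsl5 384 and 549 CPM (-0.51 ± 0.15). Fatty acid oxidation and ketogenesis had 13 of 19 genes higher (median 0.09, 0.03 without WT 1 to 0.15 without WT 2), yet the 4 with an unadjusted p under 0.05 on the low side included the dehydrogenases Acadm (88.9 and 118 CPM) and Hadh (651 and 872 CPM), while carnitine acetyltransferase Crat stood on the high side (69.7 and 49.3 CPM). The detoxifying enzyme Gsta1 was 101 and 152 CPM (-0.59 ± 0.16) and the carboxylesterase Ces2a 25.5 and 16.5 CPM (0.62 ± 0.20), with reads that close relatives could share.

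Outside the lists Rpl31-ps8 and Plekha8 passed, as given above, and among the uncalled genes with a common name and an average of at least 1 log2 CPM the 8 with the smallest p on each side were examined. On the high side Fopnl, a centrosome gene, was 97.4, 87.2, 104 and 92.1 CPM in AF2 and 53.7, 63.3 and 72.1 CPM as the lowest, median and highest in WT (0.57 ± 0.12, adjusted p 0.0577). Pcp4, a small calmodulin-binding protein, was 17.8, 13.2, 13.8 and 19.3 CPM in AF2, 6.14, 7.09, 4.69 and 5.93 CPM in KO, against 4.21, 7.08 and 11.1 CPM in WT in the same order (1.19 ± 0.27, adjusted p 0.0701). Ckb, brain-type creatine kinase, was 724 CPM in AF2, 429 CPM in KO and 498 CPM in WT (0.54 ± 0.13). The remaining 5 were Zfp617, Nat9, Park7, Pgls and Vkorc1, with log2 fold changes from 0.51 to 0.85 and adjusted p from 0.0616 to 0.0829. AF2 and WT did not overlap in 7 of the 8, Pgls being the exception. Genes of both sides were picked by their p in this same comparison, so a lack of overlap adds no support. Over all genes tested 1.48% lay higher and 1.25% lower in AF2 without overlap.

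On the low side Slc35f2, a nucleoside-related solute carrier, was 109.7, 112, 105 and 85.2 CPM in AF2 and 124, 176 and 242 CPM as the lowest, median and highest in WT (-0.82 ± 0.17, adjusted p 0.0659), without overlap. It passed without WT 4 (0.0108), with code runs as a block (0.00661) and by DESeq2 (0.00406). Uckl1, a uridine kinase, averaged 18.5 and 31.8 CPM in AF2 and WT (-0.78 ± 0.17), the coat protein Copb1 69.6 and 106 CPM (-0.61 ± 0.13) and the polarity protein Erbin 127 and 179.9 CPM (-0.51 ± 0.11), each without overlap. Arap2, a GTPase-activating protein, averaged 75.1 and 117 CPM (-0.64 ± 0.15) with overlap of AF2 with WT 4, and passed with code runs as a block (adjusted p 0.00431). Tmc4 averaged 53.9 and 85.8 CPM (-0.67 ± 0.15), and WT 4 was again the only WT library within the AF2 range. Lama3, given above, was also among the 8.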

How the data were processed

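Per the labels' protocols, total RNA was extracted from duodenum with TRIzol and sequenced from transcript 3' ends after QuantSeq library preparation. The deposited duodenum table gives raw, unnormalised counts by symbol for each library, and all of its sample columns were used. The submitters' processing notes name mm10 and limma 3.34.9. The aligner, the counter, the use of strand and the handling of reads with several matches stay unstated in the sources used here. Paralogs, pseudogenes and overlapping genes are therefore uncertain. Every deposited count was even, for a reason that is unstated. Reads were taken as counts divided by 2, an assumption on which the read numbers and the exact interval of Trpv6 rest. The main tests used the counts as deposited, with halved counts as an alternative. Replicate libraries differed beyond counting noise (chi-square per degree of freedom 5.00 or more across genes that had 20 reads or more), and 0 pairs of columns held identical values. Of the symbols 97.2% matched GENCODE vM21, which supplied coordinates. The kidney table was not used here.

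The 14 duodenum libraries entered 1 fit in edgeR 4.0.16 under R 4.3.3 (filterByExpr by genotype, scaling by the trimmed mean of M values, genotype alone in the model, two-sided robust quasi-likelihood F tests). Genes called, or said to rise, fall or pass, had an adjusted p (Benjamini-Hochberg, all tested genes) under 0.05. The SE was obtained by dividing the absolute log2 fold change by the root of F. CPM use the scaled library sizes, and CPM means carry the SD over libraries. DESeq2 1.42.0, limma 3.58.1 with voom, other filters, scalings and blocks and fits that leave out each library served as alternatives. The steps were tested on simulated data. Replicate numbers were checked as pairs: deviations of AF2 and WT libraries with the same number correlated at -0.0950 to 0.0313, so the numbers were not taken to pair the animals.

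The genes named are Vdr, the called genes, up to 4 members of each of 46 lists with the smallest p (under 0.01), and, on each side, the 8 uncalled genes with the smallest p in no list. Further list members, most of cholesterol synthesis among them, were added after values were seen. A few genes are not reported here, although counts and medians of lists include them. The members and lists were chosen with earlier results of these data known. Promoters (250 bases before to 50 after each start) are from RefSeq.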

Additional observations from a re-analysis of the deposited data

Results flagged for a closer look

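In 224 sets of AF2 or WT values, 15 held a library far from the others of its group, where the gap to the nearest library takes up most of the group's range. Chance gives about 1 in 20. In AF2 there were 8 and in WT 7. AF2 4 was the highest AF2 library for Ubb (204 CPM, gap 0.921 of the range), Fdx1 (61.4 CPM, 0.962) and Gbp7 (20.8 CPM, 0.844). It was the lowest for Ebp (176 CPM, 0.872), Acadm (77.3 CPM, 0.948) and Slc30a10 (160.5 CPM, 0.913). AF2 1 was the highest for Fdps (14.3 CPM, 0.921) and Myo1a (1535 CPM, 0.858). WT 4 was the lowest WT library for Alpi (2225 CPM, 0.723), Atf3 (5.28 CPM, 0.645) and Tmc4 (52.8 CPM, 0.665). WT 1 was the highest for Lss (17.7 CPM, 0.647) and Copb1 (143 CPM, 0.628), and WT 6 for Irf1 (319 CPM, 0.682). WT 2 had the highest total among WT libraries (25181916 counts, 0.874).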

How the results depend on the processing

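Of 111 named genes 107 kept their direction in each of 25 alternatives that gave a value. The others turned on the log2 scale: Acat2 to 0.0109 with library weights, 0.0299 with the replicate block, 0.0862 without WT 4 and WT 6, and with 1 library left out -0.120 to 0.0227 (0.00686 without AF2 4, 0.0227 without WT 6); Fdps to 0.119, 0.178 and 0.121 in the same 3 settings, with -0.332 to 0.0535 (without WT 6); Dhcr7 to 0.0546 without both; and Slc30a10 to 0.0357 without AF2 4, from -0.185. The 9 calls of AF2 against WT became 240 with no filter, 154 in DESeq2, 0 in limma-voom (1645 genes at an unadjusted p under 0.05), 23 with library weights, 0 with only AF2 and WT libraries (1483), 131 with code runs as a block, 0 without robust estimation (1587) and 39 without WT 4 and WT 6. The replicate block gave 1 call, none of the 9. Leaving out 1 library gave 0 to 217 calls. Size factors of DESeq2 and halved counts gave 9 and 10. DESeq2 and the fit without WT 4 shared 115 calls (74.7% and 53.0% of each). For AF2 against KO the 2 calls became 106 with no filter, 93 in DESeq2, 1 in limma-voom with or without weights, 1 without robust estimation, 14 with the replicate block, 5 with code runs (neither of the 2 among them) and 6 without both WT libraries, and 1 to 4 with 1 library left out. The cause of these changes was not tested. Medians of 12 of 46 lists moved by over 1 SD in some alternative. At these depths Trpv6, Gzmb and Lama3 rest on 10 reads or fewer in AF2.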
